A study of Mus musculus with 8 samples.

Results

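The 47 genes described here encode actin isoforms, proteins that bind, sever, cap, bundle or branch actin filaments, and the transcription factor SRF with its cofactors MRTFA and MRTFB. They were chosen by name, and all 47 were found among the 57180 genes of the count table once version numbers were dropped from the gene identifiers. Transcripts were measured by RNA sequencing in muscle stem cells purified by flow cytometry and used fresh; these cells sit beside the fibres and rebuild them after injury. One group held 4 control libraries (replicate numbers 2, 5, 7 and 8), labelled as wild type. The other held 4 libraries (numbers 5, 6, 7 and 8) from SC-RhoAfl/+ mice, whose RhoA gene is floxed on 1 of its 2 alleles (genotype labelled RhoA knockdown), called RhoA het here. The age of the mice, the Cre driver, the alleles the controls carried and whether animals were pooled were not given in the sources used here. The comparison asks which transcripts change when RhoA activity is lowered.

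RhoA is a small GTPase that switches on formins and other effectors, and thereby promotes the growth and the contraction of actin filaments. Unpolymerised actin holds MRTF proteins in the cytoplasm; when monomers are used up by filament growth, MRTF enters the nucleus and acts with SRF on genes that carry a short DNA element, the CArG box. Many of those genes encode actin and its partners, so the pathway links filament state to the supply of filament components. In resting muscle stem cells this system is studied as a sensor of the stiffness and tension of the niche.

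The CArG box is shown first because it is the element that SRF target genes carry. SRF binding to the members was not measured here. RefSeq promoter windows (GRCm38.p6) matched 43 of the 47 members (all but Actb, Actg2, Tagln and Cttn), and the 250 bases before the annotated start were searched for exact CArG boxes, a motif of 10 bases that reads as the same class on both strands. A box was found for 6 of these 43 genes (13.95%), against 439 of all 27025 genes with a window (1.62%). They were Srf, Actg1, Cnn2, Fhl2, Fhl1 and Arpc4. A match describes the letters and is not a bound site, and no match says only that these letters are not in this window. The stretches of Srf (chr17:46556163-46556412, minus strand), Actg1 (chr11:120348496-120348745, minus strand) and Cnn2 (chr10:79988350-79988599, plus strand) follow 5′ to 3′ in gene orientation and end at the base before the start, with CArG boxes in capitals. Pdlim7 (chr13:55513447-55513696, minus strand), the member with the smallest p below, is set beside them and had no exact box in this window.
Srf: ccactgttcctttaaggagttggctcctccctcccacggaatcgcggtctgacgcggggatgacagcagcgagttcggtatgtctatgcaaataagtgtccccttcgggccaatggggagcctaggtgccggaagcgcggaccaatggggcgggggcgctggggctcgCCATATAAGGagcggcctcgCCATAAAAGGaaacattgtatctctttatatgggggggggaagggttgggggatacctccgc
Actg1: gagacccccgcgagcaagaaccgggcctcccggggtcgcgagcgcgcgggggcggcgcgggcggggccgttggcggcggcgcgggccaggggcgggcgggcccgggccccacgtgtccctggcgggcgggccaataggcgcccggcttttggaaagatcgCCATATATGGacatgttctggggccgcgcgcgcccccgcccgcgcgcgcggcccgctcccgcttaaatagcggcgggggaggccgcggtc
Cnn2: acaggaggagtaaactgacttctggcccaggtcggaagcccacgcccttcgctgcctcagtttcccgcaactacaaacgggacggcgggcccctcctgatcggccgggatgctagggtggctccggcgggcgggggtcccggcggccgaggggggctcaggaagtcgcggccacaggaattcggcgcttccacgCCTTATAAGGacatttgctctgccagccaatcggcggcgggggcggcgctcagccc
Pdlim7: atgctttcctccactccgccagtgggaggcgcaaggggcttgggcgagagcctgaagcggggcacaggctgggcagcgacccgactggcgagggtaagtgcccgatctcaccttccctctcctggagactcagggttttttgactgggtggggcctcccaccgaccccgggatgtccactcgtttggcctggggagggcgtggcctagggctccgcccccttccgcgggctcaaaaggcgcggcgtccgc

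The boxes of Srf began 82 and 62 bases before the start, that of Actg1 90 and that of Cnn2 56 bases before it. For the other genes the box is shown with up to 10 bases on either side. Fhl2 has 2 annotated starts with 1 box each, 31 bases (chr1:43163973-43164002) and 96 bases (chr1:43196838-43196867) before them, both on the minus strand. The box of Fhl1 began 102 bases (chrX:56779571-56779600, plus strand) before an annotated start, and that of Arpc4 250 bases (chr6:113377863-113377882, plus strand) before the start. Bases after that start of Fhl1 were not found in the Fhl1 transcripts searched. Another annotated start of Fhl1 had bases found in a transcript, and its window (chrX:56786277-56786526, plus strand) had no exact box.
Fhl2, first: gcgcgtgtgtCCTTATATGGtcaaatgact
Fhl2, second: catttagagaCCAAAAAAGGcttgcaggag
Fhl1: ccttggatcaCCTAAAATGGttaagaattt
Arpc4: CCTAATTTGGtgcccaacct

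Before the members, the libraries were described. The members took 407907 to 469484 assigned fragments per library, which was 1.83% to 2.15% of all assigned fragments. All 8 listed muscle stem cell markers were detected in every library (Pax7 at 46.6 to 100.1 TPM, a share of the library scaled by gene length). RhoA het replicate 6 stood apart in its endothelial markers, whose TPM summed to 435.4 there and to between 41.9 and 119 elsewhere. It also had the highest sum of erythroid markers, 1284 TPM, followed by control replicate 7 at 623 TPM. Its immune markers had the lowest sum, 225.9 TPM, though Ptprc (0.74 TPM) and Csf1r (2.61 TPM) peaked there. RhoA het replicate 8 had the highest level of 7 of the 10 mural markers (Myh11 at 133.7 TPM, 8.55 to 50.2 elsewhere), and both libraries numbered 5 the highest proliferation genes (Mki67 at 20.5 and 13.0 TPM, at most 1.16 elsewhere). Y-linked genes gave 14358 fragments in control replicate 2 and 14659 in RhoA het replicate 6, the libraries whose number has no partner here, and at most 2 in any other. The 10 fibro-adipogenic markers summed to 3842 to 8596 TPM, highest in RhoA het replicate 8. The targeted gene, Rhoa, had a mean of 324.6 ± 46.3 CPM (a share of counts not scaled by length, after TMM scaling; SD, n = 4) in the control libraries. In the RhoA het libraries it was 264.8 ± 14.4 CPM (SD, n = 4), and its log2 fold change was -0.29 (SE 0.13; unadjusted p 0.0495, adjusted p 1 in edgeR's quasi-likelihood test).

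Across the 47 members the expression of the actin cytoskeleton did not shift past the test. 0 members passed the threshold of 0.05 on edgeR's p once adjusted by Benjamini-Hochberg over the 15660 genes tested, and 0% of those genes did. All 47 passed the filter on low counts. Log2 fold changes (RhoA het over control) were taken on TMM-scaled counts, not on TPM, unless another setting is named. They ran from -0.20 for Actn1 to 1.00 for Cnn1, with 24 members above 0 and 23 below. Their median was 5.1e-05, beside -0.00071 over all genes. The split moved with the scaling: 30 of 47 were above 0 on total counts and 32 of 47 with limma on log2(TPM + 1), where the median of all genes itself moved to 0.042 and 0.068. Without control replicate 7 it was 17 of 47. At an unadjusted p under 0.05 there was 1 member higher, Pdlim7, where 1.68% of all genes were higher by that rule, and 0 lower, where 0.696% were. DESeq2's Wald test gave 0 members at an adjusted p under 0.05 and the same single gene at an unadjusted p under 0.05. The median absolute log2 fold change was 0.088 for the members and 0.14 for all genes tested, and the median standard error was 0.18 and 0.25. Nothing in the labels says whether the libraries are separate animals, so p-values measure the spread between these libraries.

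**Figure D1:**
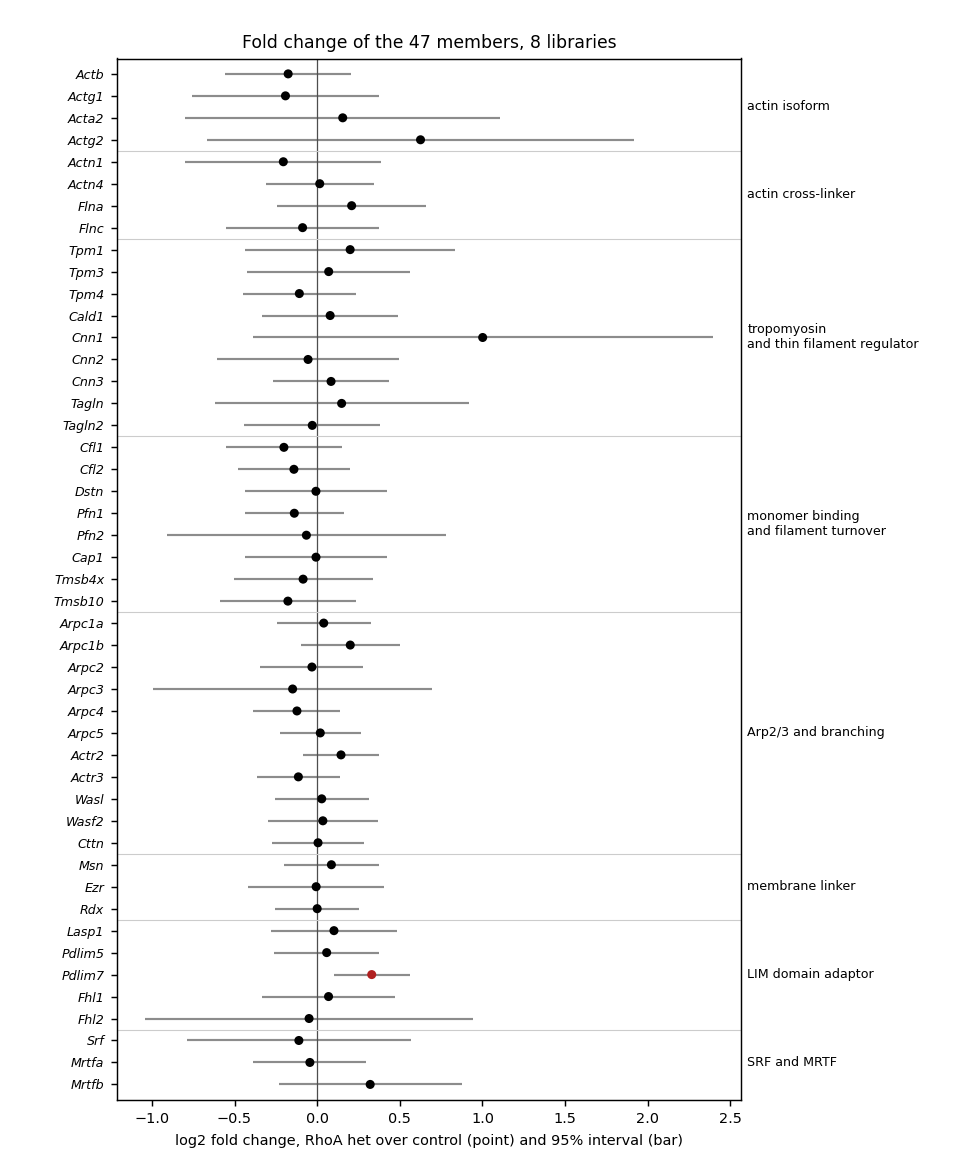
Log2 fold change of each member (x axis, RhoA het over control, edgeR, 4 libraries per group) with its 95% confidence interval, grouped by role. Only the interval of Pdlim7 (red, groups not overlapping in CPM) lies wholly on one side of 0; the widest belong to Cnn1 (-0.39 to 2.39), Actg2, Fhl2 and Acta2.

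Pdlim7 (ENSMUSG00000021493.16, chromosome 13 from 55643608 to 55661489 in mm39) had the smallest p of the members and did not pass the adjusted test. The gene encodes a LIM domain adaptor also known as Enigma, which tethers partner proteins to actin filaments. It stood at 176.9, 169.3, 161.6 and 167.1 CPM in control replicates 2, 5, 7 and 8. In RhoA het replicates 5, 6, 7 and 8 it stood at 222.5, 211.2, 194.7 and 219.9 CPM. All RhoA het libraries lay above all control libraries, a pattern that 1.02% of all genes showed in this direction and 1 of the 47 members. Pdlim7 had a log2 fold change of 0.33 (SE 0.10, 95% interval 0.10 to 0.56), or 25.7% higher, with an unadjusted p of 0.00968 and an adjusted p of 1 in edgeR. The two-sided exact permutation p was 0.0286, the smallest that 70 assignments of 4 against 4 libraries can give. In deposited TPM the means were 108.9 ± 12.7 and 144.4 ± 12.8 (SD, n = 4 each). Across all 19 settings, from other scalings to leaving out each library, its log2 fold change stayed between 0.30 and 0.41 and its unadjusted p between 0.0029 and 0.031, while no adjusted p fell below 0.05. These settings reuse the same libraries, and the gene was picked for its smallest p, so they are not separate evidence. No member stood below all control libraries in all RhoA het libraries, as 0.792% of all genes did. The exons of Pdlim7 overlap 1 microRNA gene on the same strand.

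Replicate numbers 5, 7 and 8 occur in both groups, and same-numbered libraries deviated together from their group means. Across the 47 members these deviations correlated at 0.79 for number 5, 0.42 for number 7 and 0.73 for number 8, beside 0.57, 0.35 and 0.50 across all genes tested; genes are not independent, so these values describe the libraries and have no p. The mean absolute log2 difference between same-numbered libraries of different genotype was smaller than that between libraries of the same genotype and different number for 35 of the 47 members (74.5%), and for 65.0% of all genes tested. Its median over the members was 0.19 between genotypes within a number and 0.23 between numbers within a genotype. Over the 3 pairs, 7 members were higher in RhoA het in all 3 (Tpm3, Cnn3, Arpc1b, Cald1, Actr2, Pdlim7 and Msn) and 5 were lower in all 3 (Actr3, Pfn1, Actg1, Cfl2 and Srf), where 13.6% and 12.5% of all genes were. A fit that compares libraries within each of the 3 pairs, a replicate block, put 0 members and 0.0127% of all genes past an adjusted p of 0.05 in edgeR. At an unadjusted p under 0.05 the block left Pdlim7 higher (log2 fold change 0.33, p 0.0129 in edgeR), where 2.98% of all genes were. It put Actg1 (-0.33, p 0.0175 in edgeR) and Cfl2 (-0.32, p 0.0156 in edgeR) lower, where 2.28% of all genes were; the adjusted p of all 3 was 0.788 or more.

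**Figure D2:**
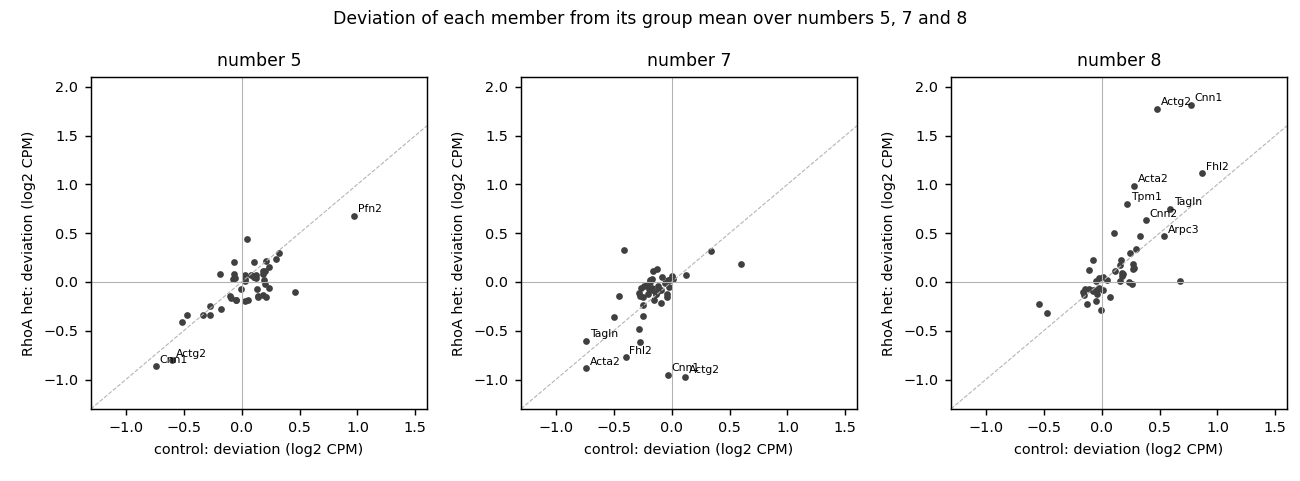
Each point is 1 of the 47 members; axes give its deviation (log2 CPM) from the group mean over numbers 5, 7 and 8 in the control library (x) and in the RhoA het library (y) of that number, and the dashed line marks equal deviations. The correlation was 0.79 for number 5, 0.42 for number 7 and 0.73 for number 8, with Pfn2 high and Cnn1 and Actg2 low in both libraries numbered 5, and Cnn1, Actg2, Fhl2 and Tagln high in both numbered 8.

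Actin itself came mainly from the beta isoform. Actb, the main cytoplasmic actin of non-muscle cells, stood at 4782, 5477, 4266 and 5690 TPM in control replicates 2, 5, 7 and 8 and at 4840, 4210, 4660 and 5366 TPM in RhoA het replicates 5, 6, 7 and 8. It was the 16th most abundant of all genes by mean TPM, and the groups overlapped. Its log2 fold change was -0.18 (SE 0.17, interval -0.55 to 0.20, exact permutation p 0.257). Actg1, the other cytoplasmic actin, was at 681.8, 553.6, 936.1 and 763.5 TPM in control and at 468.1, 869.4, 741.1 and 634.7 TPM in RhoA het. The groups overlapped, and both libraries numbered 5 were lowest. The log2 fold change was -0.19 over 8 libraries (SE 0.25, exact permutation p 0.514). It was -0.034 without RhoA het replicate 5 and -0.10 without control replicate 7, and -0.38 without RhoA het replicate 6 and -0.36 without control replicate 5. Actb made up 82.0% to 91.2% of the 2 transcripts by TPM, with means of 87.1% ± 3.7 in control and 87.4% ± 3.65 in RhoA het (SD, n = 4 each). Reads that match both isoforms, or processed copies of an actin gene, were not counted, so these shares rest on fragments unique to each gene.

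The smooth muscle isoforms varied most. Acta2, the actin of vascular smooth muscle and of activated fibroblasts, stood at 293, 1012, 411.8 and 762.6 TPM in control replicates 2, 5, 7 and 8 and at 646.8, 509.8, 360.6 and 1316 TPM in RhoA het replicates 5, 6, 7 and 8. The groups overlapped over most of their range, and the highest library was RhoA het replicate 8. Actg2, the enteric smooth muscle actin, was at 6.57, 6.19, 9.47 and 11.2 TPM in control and at 5.87, 10.4, 4.98 and 33.4 TPM in RhoA het, with the same library highest. Cnn1, the calponin of differentiated smooth muscle, was at 6.03, 8.44, 12.9 and 20.6 TPM in control and at 9.67, 22.9, 8.73 and 59.3 TPM in RhoA het. Tagln, a small actin-binding protein of the same cells, lay between 6.85 and 15.7 TPM in control and between 8.26 and 21.0 TPM in RhoA het. Their log2 fold changes were 0.15 (SE 0.43) for Acta2, 0.63 (SE 0.58) for Actg2, 1.00 (SE 0.62) for Cnn1 and 0.15 (SE 0.34) for Tagln, with exact permutation p of 0.914, 0.829, 0.4 and 0.743. Without RhoA het replicate 8 they were -0.33, -0.30, 0.16 and -0.15. Acta2 was also below 0 without control replicate 2 (-0.04) or control replicate 7 (-0.01), and Tagln without control replicate 7 (-0.05).

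Markers of mural cells, which wrap small vessels and use these genes, moved with part of this pattern. Myh11, a smooth muscle myosin, was at 10.6, 8.55, 18.4 and 49.999 TPM in control replicates 2, 5, 7 and 8 and at 9.95, 50.2, 8.93 and 133.7 TPM in RhoA het replicates 5, 6, 7 and 8. Pdgfrb was highest in RhoA het replicate 8 at 56.5 TPM, with 12.8 to 27.1 TPM elsewhere. Of the 10 markers 7 peaked in that library; Kcnj8 (34.4 TPM) and Notch3 (89.6 TPM, 58.1 to 86.1 TPM elsewhere) peaked in RhoA het replicate 6 and Des (1251 TPM) in control replicate 8. The 10 mural markers summed to 1161 to 1729 TPM in control and to 1153 to 2004 TPM in RhoA het; much of that was Des, which muscle cells also express, and none was at 0. Acta2 was also high in control replicate 5, at 1012 TPM, where Myh11 was at its lowest. In bulk RNA, more cells of a type cannot be told apart from more RNA per cell, and the part of the mural markers in these values was not tested.

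**Figure D3:**
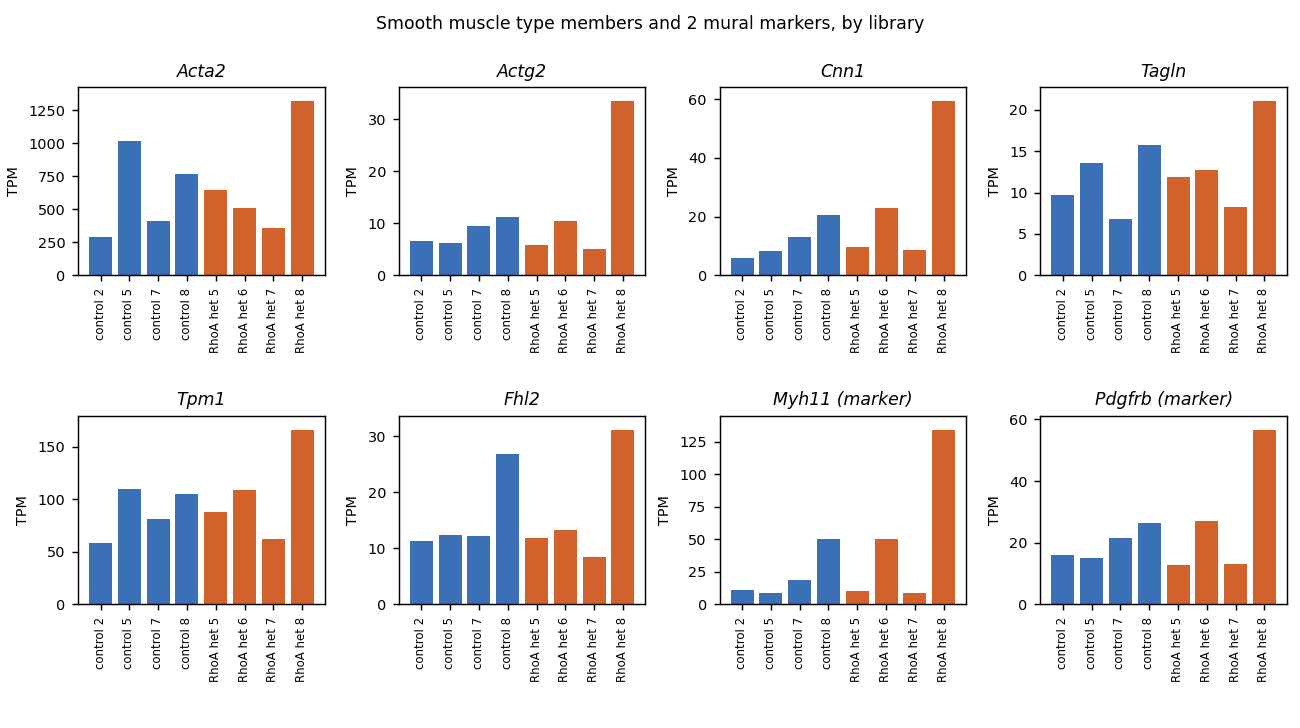
TPM (y axis, from 0) of 6 members and of the mural markers Myh11 and Pdgfrb in each library (blue control, orange RhoA het, 1 bar per library). All 8 panels peak in RhoA het replicate 8, while Acta2 alone is also near its peak in control replicate 5 (1012 TPM against 1316).

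Among the other filament regulators, the tropomyosins, which coat filaments and set which partners may bind, were led by Tpm4 and Tpm3. Tpm4 lay between 411.3 and 596.7 TPM and Tpm3 between 293.2 and 449.5 TPM over the 8 libraries. Tpm1 was lower, between 58.4 and 165.5 TPM, and was again highest in RhoA het replicate 8. Tpm4 gave 52.8% ± 4.74 of the 3 in control and 49.5% ± 4.51 in RhoA het (SD, n = 4 each), a difference inside the spread between libraries. Of the calponins, Cnn3, the form outside smooth muscle, was the most abundant by far at 937.9 to 1325 TPM, and Cnn2 stood at 29.2 to 62.9 TPM. Caldesmon (Cald1), which restrains myosin on actin, lay between 68.9 and 162.6 TPM, highest in both libraries numbered 5. Tagln2, the transgelin of non-muscle cells, lay between 651.6 and 977.9 TPM. In this group of 9 genes 6 had a log2 fold change above 0 and 0 passed the test. Without RhoA het replicate 6 or without replicate 8 it was 4 of 9.

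The cross-linkers hold filaments in bundles and networks. Actn4, a non-muscle alpha-actinin, lay between 564.5 and 754.6 TPM and Flnc, the filamin of muscle cells, between 455.6 and 696.3 TPM. Actn1, the related actinin, was much lower at 23.5 to 47.4 TPM. Flna lay between 108.9 and 253.3 TPM with its highest value in RhoA het replicate 8. Log2 fold changes of the 4 were -0.20 for Actn1, 0.016 for Actn4, 0.21 for Flna and -0.088 for Flnc, and none passed the test. Each changed sign when some single library was left out, and without RhoA het replicate 8 0 of the 4 were above 0.

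Genes for monomer binding and filament turnover were among the most abundant members. Tmsb4x and Tmsb10 encode thymosins, which hold actin monomers in reserve. Tmsb4x was at 2673, 2553, 2338 and 2558 TPM in control replicates 2, 5, 7 and 8 and at 2848, 2939, 2033 and 2367 TPM in RhoA het replicates 5, 6, 7 and 8, so the RhoA het libraries bracketed the control range. Its mean was 2531 TPM in control and 2547 TPM in RhoA het, while its log2 fold change on TMM-scaled counts was -0.085 (SE 0.19, exact permutation p 0.571). Tmsb10 lay between 1374 and 2389 TPM and was highest in RhoA het replicate 5. Cfl1, the main cofilin, which severs old filaments, was at 1211, 1192, 1034 and 1257 TPM in control and at 1216, 1023, 1038 and 1099.8 TPM in RhoA het. It varied least of all members by TPM, with a coefficient of variation of 8.42% over the 8 libraries. The log2 fold change of Cfl1 was -0.20 (SE 0.16, exact permutation p 0.314).

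Profilin delivers monomers to growing filaments and to formins. Pfn1 was at 974, 1301, 1078 and 993.9 TPM in control replicates 2, 5, 7 and 8 and at 1240.0, 1003, 1025 and 901.6 TPM in RhoA het replicates 5, 6, 7 and 8, highest in both libraries numbered 5. The log2 fold change of Pfn1 was -0.14 (SE 0.13, exact permutation p 0.2). Pfn2, a second profilin, was at 21.8 and 18.7 TPM in the libraries numbered 5 and at 6.85 to 8.92 TPM in the other libraries, so its groups overlapped completely. Dstn, a cofilin relative that frees monomers, lay between 410.1 and 686.9 TPM. Cfl2, the muscle cofilin, lay between 99.2 and 200.3 TPM, and Cap1, which recycles monomers from cofilin, between 33.0 and 60.7 TPM. All 8 genes of this group had a log2 fold change below 0, from -0.20 to -0.0071, and 0 passed the test. The direction was not stable: on total counts 2 of the 8, on log2(TPM + 1) 3 of the 8, and without RhoA het replicate 7 4 of the 8 were above 0.

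**Figure D4:**
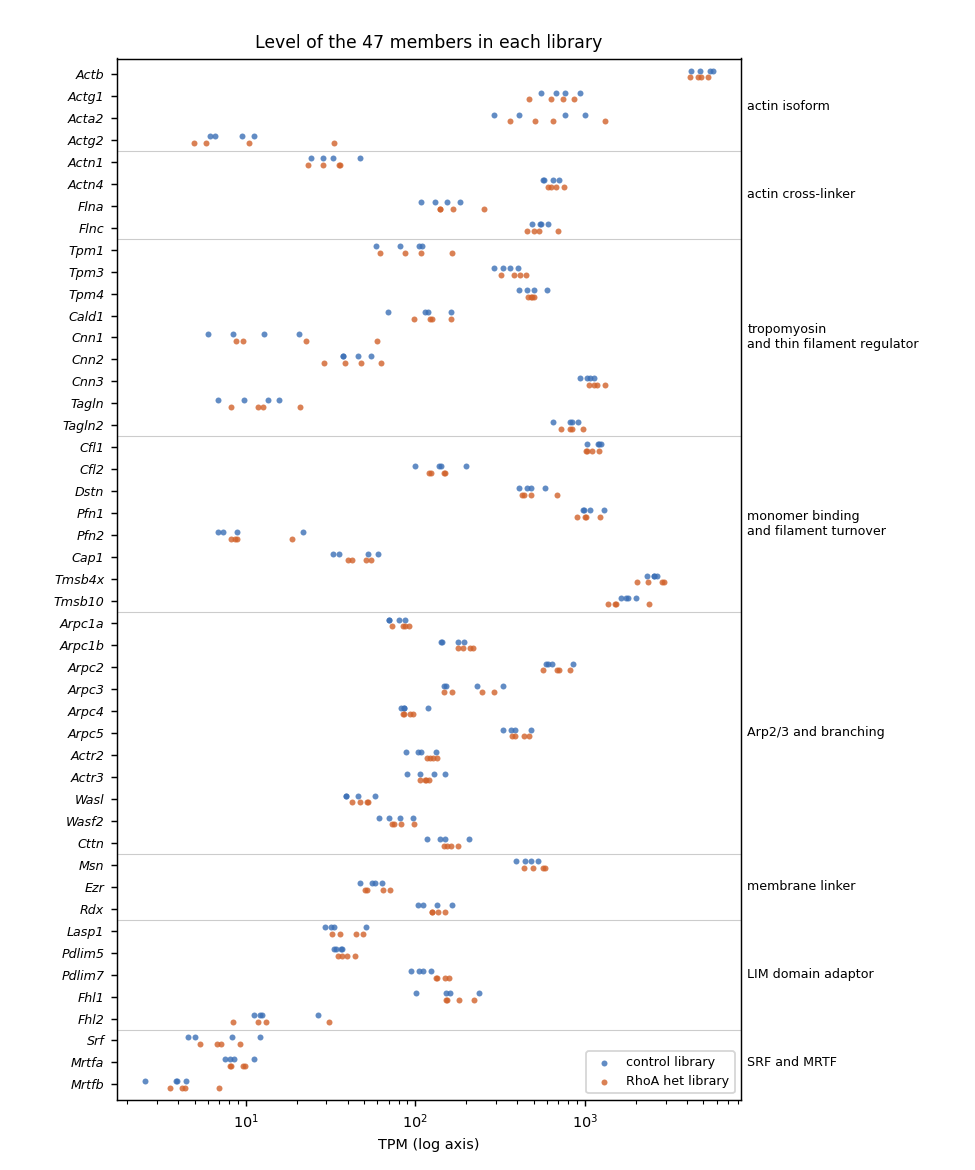
TPM (x axis, log scale) of each member in each of the 8 libraries, control in blue and RhoA het in orange, grouped by role. By mean TPM Actb and the thymosins lead and Srf, Mrtfa and Mrtfb are lowest, though Actg2 lies below Mrtfa in some libraries. The colours overlap in every row except that of Pdlim7.

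The Arp2/3 complex starts new branches on existing filaments and is switched on by N-WASP (Wasl) and WAVE2 (Wasf2), while cortactin (Cttn) steadies the branches. Its subunits differed in level: Arpc2 lay between 569.1 and 850.7 TPM, Arpc5 between 329.4 and 481.1 TPM, and the actin-related subunits Actr2 and Actr3 between 88.6 and 135 TPM and between 89.98 and 150.2 TPM. Arpc1b, one of 2 alternative forms of a subunit, was at 287, 278.4, 217.2 and 298.9 CPM in control and at 321.1, 320.8, 276.8 and 323.7 CPM in RhoA het. Of these RhoA het libraries 3 lay above all control libraries and RhoA het replicate 7 did not. Arpc1b had a log2 fold change of 0.20 (SE 0.13, 95% interval -0.098 to 0.499, exact permutation p 0.114). Actr2 had one of 0.14 (SE 0.10, exact permutation p 0.0571), Actr3 one of -0.11 (SE 0.11) and Arpc4 one of -0.12 (SE 0.12). The other form, Arpc1a, was less abundant: Arpc1b gave 68.1% ± 1.76 of the 2 in control and 70.4% ± 2.13 in RhoA het (SD, n = 4 each).

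Arpc3, another subunit, tracked the numbers 5, 7 and 8. It was at 148.8 and 149 TPM in the control and RhoA het libraries numbered 5, at 152.1 and 164.9 TPM in those numbered 7, and at 232.7 and 248.4 TPM in those numbered 8. The highest were control replicate 2 at 328.1 TPM and RhoA het replicate 6 at 291.2 TPM, where Y-linked genes gave 14358 and 14659 fragments. These were the highest pair of libraries by CPM for 6 of the 47 members (12.8%) and for 6.39% of all genes tested. The highest library was 2.21-fold the lowest, and same-numbered libraries lay close together. Arpc3, Arpc1a and Arpc1b each share exon bases with 1 antisense gene, whose reads unstranded counting cannot separate. Of the 11 genes of this group 7 had a log2 fold change above 0 and 0 passed the test; without control replicate 7, or without control replicate 8, 4 of the 11 were above 0. The nucleation promoters lay at 39.0 to 57.9 TPM for Wasl and 61.2 to 98.6 TPM for Wasf2, and Cttn at 116.9 to 207.4 TPM.

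Moesin (Msn), ezrin (Ezr) and radixin (Rdx) tie filaments to the plasma membrane. Msn was the leading form at 395.9 to 580.5 TPM, against 104.2 to 165.4 TPM for Rdx and 47.6 to 71.2 TPM for Ezr. Their log2 fold changes were 0.086, 5.1e-05 and -0.0062. Among the LIM domain adaptors, Fhl1 lay between 101.1 and 238.2 TPM, highest in both libraries numbered 5, Lasp1 between 29.6 and 51.0 TPM and Pdlim5 between 33.0 and 44.2 TPM. Fhl2, a cofactor of SRF-dependent transcription, was at 26.8 and 31.1 TPM in the libraries numbered 8 and at 8.42 to 13.2 TPM elsewhere. None of these 4 passed the test.

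SRF and its cofactors were low and did not differ past the test. Srf was at 4.57, 8.27, 12.2 and 5.06 TPM in control replicates 2, 5, 7 and 8 and at 6.77, 9.25, 7.12 and 5.37 TPM in RhoA het replicates 5, 6, 7 and 8. The highest value was that of control replicate 7, and the RhoA het values lay inside the control range. Its log2 fold change was -0.11 (SE 0.30, interval -0.79 to 0.57, exact permutation p 0.771), 0.19 without control replicate 7 and 0.0056 without RhoA het replicate 8. It was -0.39 with the replicate block (p 0.130 in edgeR) and -0.44 in the same 6 libraries not blocked. Control replicate 7 also had the highest sum of the 16 dissociation response genes, at 54352 TPM against 25488 to 47614 TPM elsewhere. They include immediate early genes, which are themselves SRF targets in part, and heat shock genes. The heat shock gene Hspa1a was at 1295 TPM in that library and at 5965 and 5655 TPM in control and RhoA het replicate 8. The part of these genes in the value of Srf was not tested. Mrtfa was at 7.56, 11.3, 8.53 and 8.04 TPM in control and at 8.19, 9.67, 8.06 and 9.97 TPM in RhoA het. Its means were 8.85 and 8.97 TPM, while its log2 fold change on TMM-scaled counts was -0.044 (SE 0.15, exact permutation p 0.629). Mrtfb was at 2.56, 3.86, 4.46 and 3.94 TPM in control and at 4.41, 6.96, 4.2 and 3.59 TPM in RhoA het, with RhoA het replicate 6 highest. Its log2 fold change was 0.32 (SE 0.25, exact permutation p 0.429), and 0.032 without that library. Mrtfa gave 70.5% ± 4.77 of the pair in control and 65.6% ± 6.29 in RhoA het (SD, n = 4 each).

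The 6 members with a CArG box in the sequences above had log2 fold changes of -0.11 for Srf, -0.19 for Actg1, -0.055 for Cnn2, -0.049 for Fhl2, 0.069 for Fhl1 and -0.12 for Arpc4 over 8 libraries. With the replicate block they were -0.39, -0.33, -0.19, -0.17, -0.026 and -0.12 in the same order. All 6 were below 0 there, where 18 of all 47 members and 7149 of 15503 genes were above 0. The same 6 libraries not blocked gave -0.44, -0.35, -0.14, -0.084, -0.029 and -0.13. Over the 19 settings Fhl1 was above 0 in 15, Fhl2 in 5, Srf in 3, Cnn2 in 3, and Actg1 and Arpc4 in 0. Srf and Actg1 were the lowest members with the replicate block, followed by Cfl2, which had no box in its window. None of the 6 passed an adjusted p of 0.05 in any of these fits, and whether genes with and without a box differ was not tested.

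Other genes of the pathway, listed apart from the members, gave a like picture. Of 40 further SRF targets 21 had a log2 fold change above 0 and 19 below, with a median of 0.049, and 0 had an unadjusted p under 0.05. The smallest p belonged to Ptgs2 (log2 fold change -2.38, SE 1.32), which was at 638.4 CPM in control replicate 2 and at 7.11 to 51.6 CPM elsewhere, to Ccn2 (0.64, SE 0.36), a secreted matricellular protein, and to Synpo2 (0.75, SE 0.50), an actin bundler of muscle. With the replicate block 1 of the 40, the skeletal actin gene Acta1, passed an adjusted p of 0.05 (log2 fold change -1.32, adjusted p 0.0275 in edgeR, beside -0.05 over 8 libraries and -1.37, unadjusted p 0.119 in edgeR, in the same 6 libraries not blocked). In the blocked fit 9 of 11 myofibre markers had an unadjusted p under 0.05 and 0 of 11 were above 0. Acta1 is one of them, and the 2 genes that the block called over all genes were both myofibre markers. The part of fibre RNA in the value of Acta1 was not tested. By the block 3 of the 40 were higher and 4 lower at an unadjusted p under 0.05, where 2.98% and 2.28% of all genes were. Of 21 tested genes between RhoA and actin (formins, LIM kinases, slingshot phosphatases and MRTF modulators among them) 16 were above 0, with a median of 0.12 and 0 at an unadjusted p under 0.05. By the block 1 was higher and 1 lower at that p, against the same shares of all genes. Ssh1, a phosphatase that switches cofilin on (0.42, SE 0.24), the formins Diaph2 (0.24, SE 0.15) and Fhod3 (-0.82, SE 0.50) had the smallest p. Of 29 tested genes for branching, capping and bundling 19 were above 0 and 1 had an unadjusted p under 0.05. That gene, Lcp1, the plastin of blood cells, was at 13.0 CPM in RhoA het replicate 6 and at most at 0.762 CPM elsewhere. Evl (-0.54, SE 0.29), which speeds filament growth, and Tmod3 (0.22, SE 0.12), which caps pointed ends, followed. By the block 3 of the 29 were higher and 2 lower at that p, beside 2.98% and 2.28% of all genes.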

How the data were processed

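RNA of 8 libraries was sequenced. The authors deposited a count table and a TPM table. Per the file headers, counts are fragments per gene from featureCounts 1.6.4 (paired-end, exons summed by gene, GENCODE release M34 on mm39, from STAR alignments), with no strand, multi-mapping or overlap option; cutadapt and DESeq2 are named in the submitters' processing notes. Of 10 alignment files in the command line, 8 have a column; the others were not analysed here. The kit was a low-input template-switching one with PCR. Totals were 19.1 to 25.6 M assigned fragments per library (M, mega), so low genes are the least precise. The deposited TPM equalled counts per gene length scaled per library (largest relative difference 2e-14). Exons of 20 members overlap another gene. Symbols from a table of gene IDs supplied with the reference named 51884 of 57180 genes. Promoter sequences are RefSeq's (GRCm38.p6).

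Counts were filtered with filterByExpr (15660 genes kept), scaled by TMM and tested with edgeR 4.0.16 (R 4.3.3, quasi-likelihood) over all 8 libraries, with Benjamini-Hochberg adjustment over all genes; standard errors come from the F statistic. For single genes, log2 CPM (prior count 2) was also compared by exact permutation, two-sided. Same-numbered libraries were taken as pairs because they deviated together from the group means, with correlations of 0.57, 0.35 and 0.50 for numbers 5, 7 and 8 across all genes; where the numbers come from is not stated in the labels. Scripts were tested on simulated data. Alternatives were DESeq2 1.42.0, limma 3.58.1, other scalings and filters, a replicate block, and omission of each library in turn.

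The members and lists were chosen with earlier results of these data known. Genes given in detail were Rhoa, 11 fixed members, any member past the threshold and the 5 per direction with the smallest p, and 3 per other list; further genes were named after their values were seen.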

Additional observations from a re-analysis of the deposited data

Results flagged for a closer look

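Within each group of 4 libraries, the highest or lowest library's gap to its neighbour was divided by the group's range for each of the 47 members, on log2 CPM. There were 5 values past Dixon's 95% critical value of 0.829 among 94 tested, where chance gives about 4.7. Pfn2 was high in RhoA het replicate 5 (ratio 0.966), at 19.1 CPM against 9.28 to 9.51 CPM in the other RhoA het libraries. Arpc1b was low in RhoA het replicate 7 (ratio 0.944), at 276.8 CPM against 320.8 to 323.7 CPM. Cttn was high in control replicate 5 (ratio 0.943), at 243.1 CPM against 189.3 to 192.0 CPM in the other control libraries. Cnn3 was high in control replicate 2 (ratio 0.868), at 1256 CPM against 932.6 to 969.9 CPM. Actb was high in RhoA het replicate 8 (ratio 0.866), at 4329 CPM against 3668 to 3750.4 CPM.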

How the results depend on the processing

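Under the scalings, filters, tests and left-out libraries tried, 0 members and 0 genes passed an adjusted p of 0.05. The exception was the replicate block over 3 pairs, which called 2 genes, both myofibre markers and none a member. The block gave 3 members at an unadjusted p under 0.05 in place of 1; each other setting tried gave 1, Pdlim7. The median log2 fold change of the members moved by less than the spread between libraries (0.15) in all settings. Direction reversed for some members that never passed the test. With limma on log2(TPM + 1) Mrtfa was 0.027, and on log2(TPM + 0.1) Mrtfa was 0.031 and Srf 0.0081. With the block Mrtfb was -0.060 and Acta2 -0.068, and in the same 6 libraries not blocked Mrtfb was -0.062. Leaving out each library gave -0.33 to 0.38 for Acta2, -0.30 to 0.89 for Actg2, -0.15 to 0.35 for Tagln, -0.31 to 0.19 for Srf, -0.12 to 0.019 for Mrtfa and -0.20 to 0.044 for Tmsb4x; the cause was not tested. With 4 libraries per group the median standard error of the members was 0.18, and Actg2, Srf, Fhl2 and Tagln rest on the fewest fragments (52 to 305, 91 to 282, 107 to 354 and 109 to 245 per library).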
